A study of Arabidopsis thaliana with 20 samples.

Results

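The genes described here are the very long protein-coding genes of Arabidopsis thaliana, those of 7000 bp or more from start to end in the TAIR10.1 RefSeq annotation of the nuclear genome. They were chosen by annotated length alone, and 490 of 27444 protein-coding nuclear genes are described. Another 4 genes of that length are not described here, and they enter only the values over all genes or outside the long genes. The histone marks along them were read from chromatin immunoprecipitation followed by sequencing (ChIP-seq), which counts the DNA fragments pulled down with an antibody. The seedlings were 10 days old, of the Columbia accession, grown on plates under long days. One genotype was *h3.3kd*, which is homozygous for mutant alleles of HTR4 and HTR8 (htr4, htr8) and carries an artificial microRNA against HTR5, so that each of these genes for the histone variant H3.3 is hit. The microRNA is driven by the HTR5 promoter, and which of the independent *h3.3kd* lines went into ChIP-seq is not given in the sources used here. The other genotype was the wild type (WT), without these alleles or the transgene. The 5 antibodies recognised H3, H3K4me3, H3K36me3, H2A.Z and H1, and with 2 replicates per genotype there were 20 libraries. ChIP reads come from DNA, so the knock-down of the HTR5 transcript cannot be checked in them.

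In plants, trimethylation of lysine 4 of histone H3 (H3K4me3) is placed on the first nucleosomes of transcribed genes. Trimethylation of lysine 36 (H3K36me3) is carried along with elongating RNA polymerase II, and in Arabidopsis it lies mostly in the 5′ part of transcribed genes rather than towards their ends. H2A.Z, a variant of histone H2A, sits at the first nucleosomes of most genes and spreads over the bodies of genes that respond to the environment. Linker histone H1 binds the DNA between nucleosomes and is associated with compaction. H3.3, the replacement variant of H3, is laid down during transcription and in Arabidopsis is found mostly towards the 3′ end of transcribed genes. In a gene of ordinary length these domains abut or overlap, whereas a very long gene has a stretch between its ends in which each mark can be read apart from both.

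The long genes had a median length of 8343.5 bp and reached 27265 bp in ATM (AT3G48190), the kinase that signals DNA double-strand breaks. Of the 490, 207 were under 8000 bp, 162 were of 8000 to under 10000 bp, and 121 were of 10000 bp or more. A long gene had a median of 23 exons, against 9 in the 6520 protein-coding genes of 3000 to under 7000 bp and 4 in all protein-coding genes. Introns made up a median of 43.79% of a long gene, 35.12% of a gene of 3000 to under 7000 bp and 24.65% of all protein-coding genes. Both coding sequence and intron were longer than in genes of 3000 to under 7000 bp. The medians were 4095 against 1878 bp of coding sequence and 3724 against 1340 bp of intron. Single long introns were few, since the median of the longest intron was 487.5 bp and 24 members had an intron of 1500 bp or more. Another annotated gene overlapped 170 members, and 59 held a whole other gene within their bounds, whose reads cannot be told apart from those of the member. By words in their RefSeq descriptions, 48 members were polymerases or helicases, 38 kinases and 27 chromatin regulators. A further 22 were myosins or kinesins, 16 trafficking proteins, 13 transcription regulators, 12 ubiquitin enzymes, 10 callose synthases, 9 ATP-binding cassette (ABC) transporters and 6 immune receptors. A gene can be in more than 1 of these lists, and 304 members were in none.

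The sequences below are from the RefSeq genome (TAIR10.1), 5′ to 3′ on the strand of the gene, and show the places at which the marks of long genes are described. The first is the stretch just before the start of AT1G67120, which encodes the midasin-like protein, the ATPase that in yeast pulls factors off the large ribosomal subunit. It is shown because it holds motifs common before plant genes, with TATAAA and TGGGCC in capitals, and it lies at chr1:25095639-25095888 on the minus strand.
AT1G67120, 250 bases before the start: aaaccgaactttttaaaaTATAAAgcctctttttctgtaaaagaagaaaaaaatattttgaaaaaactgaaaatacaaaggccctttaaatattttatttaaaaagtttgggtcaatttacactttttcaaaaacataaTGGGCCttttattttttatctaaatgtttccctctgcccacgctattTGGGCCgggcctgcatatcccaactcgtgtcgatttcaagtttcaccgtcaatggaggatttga
In a window of 250 bases before to 50 bases after the start, TATAAA was found on either strand in 47.1% of long genes and 52.1% of all protein-coding genes. TGGGCC, a core of the sites that TCP factors bind in plants, was found in 22.0% of long genes and 15.5% of all protein-coding genes. AAACCCTA was found in 5.3% of long genes and 6.2% of all, and GAGAGA in 31.0% of long genes and 29.2% of all. These shares are a description of letters in a window, without a test.
The next sequences are bases 251 to 500 of ATM, inside the H3K4me3 domain, and the bases from 3000 to 2750 before its end, where the body gives way to the last 3 kb. The first of them was picked after its values were seen, which are a description only. Of the steps of the first 3 kb of ATM between the start and stop codons, it had the highest H3K4me3 in WT. They lie on the plus strand at chr3:17801539-17801788 and chr3:17825554-17825803, and both lie between the start and stop codons, in intron, in lower case.
ATM, bases 251 to 500: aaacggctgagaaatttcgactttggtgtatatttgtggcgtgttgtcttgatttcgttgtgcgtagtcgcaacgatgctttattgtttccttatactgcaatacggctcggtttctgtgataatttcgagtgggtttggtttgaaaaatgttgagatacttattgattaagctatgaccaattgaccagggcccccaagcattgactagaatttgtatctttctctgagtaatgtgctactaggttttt
ATM, 3000 to 2750 bases before the end: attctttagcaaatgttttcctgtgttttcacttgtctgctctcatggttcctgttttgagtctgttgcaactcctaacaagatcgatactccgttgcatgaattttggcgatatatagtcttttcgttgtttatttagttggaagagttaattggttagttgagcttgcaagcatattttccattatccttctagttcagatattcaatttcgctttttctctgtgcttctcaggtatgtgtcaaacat
In these 250 bases near the start, H3K4me3 over H3 was 1.10 and 1.78 in *h3.3kd*, against 1.37 and 1.54 in WT, on the log2 scale. In the stretch nearer the end, H3K36me3 over H3 was 0.50 and 0.45 in *h3.3kd*, against 0.98 and 0.94 in WT. The next sequence is bases 2001 to 2250 of MEE29 (AT2G35340), a helicase, at chr2:14874265-14874514 on the plus strand with exon in capitals. It was picked after its values were seen and is a description only. Of the steps of the first 3 kb of MEE29 between the start and stop codons, it had the lowest H3K36me3 in *h3.3kd* relative to WT.
MEE29, bases 2001 to 2250: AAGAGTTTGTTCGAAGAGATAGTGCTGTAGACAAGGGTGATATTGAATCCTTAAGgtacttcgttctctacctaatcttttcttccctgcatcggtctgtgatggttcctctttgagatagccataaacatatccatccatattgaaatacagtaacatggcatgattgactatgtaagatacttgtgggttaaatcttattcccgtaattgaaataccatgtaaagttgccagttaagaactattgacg
H3K36me3 over H3 there was -2.31 and -0.48 in *h3.3kd*, against 0.61 and 0.41 in WT, from 6 and 26 reads of the mark in the shallower *h3.3kd* libraries, against 90 and 48 in WT. The last are the borders of the longest introns of AT3G60961, of 10234 bp, and of GSL09 (AT5G36870), a callose synthase gene, of 4293 bp. They show how the long introns examined below begin and end, with 30 bases of exon in capitals and 30 of intron in lower case. The borders of AT3G60961 lie at chr3:22541372-22541431 and chr3:22551606-22551665, and those of GSL09 at chr5:14522067-14522126 and chr5:14526360-14526419, all on the plus strand.
AT3G60961, start of the intron: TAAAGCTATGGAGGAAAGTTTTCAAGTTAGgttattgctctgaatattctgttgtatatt
AT3G60961, end of the intron: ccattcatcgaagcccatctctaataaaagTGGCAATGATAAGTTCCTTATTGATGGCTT
GSL09, start of the intron: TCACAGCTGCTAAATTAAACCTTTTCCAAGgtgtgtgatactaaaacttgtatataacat
GSL09, end of the intron: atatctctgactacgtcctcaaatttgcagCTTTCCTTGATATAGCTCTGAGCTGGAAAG

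Depth was 8688846 to 68090065 listed reads per library, and the smallest was WT replicate 2 of H3. The replicate 2 libraries of H2A.Z and H3K4me3, 4 over both genotypes, list neither strand nor organelle reads, a difference between replicates and not between genotypes. For H3K36me3 the depth went with the genotype, with 10829576 and 13413898 reads in *h3.3kd*, against 27138447 and 18221156 in WT. WT replicate 2 of H3 stands apart in shape. Over the long genes its density was 3.49 at 250 to 500 bp (log2 of reads per 1000000 and kb) and 2.99 in the middle, and in the final 250 bp it lay 0.16 above the middle, whereas in the other libraries the final 250 bp lay below it. The difference between the final 250 bp and the middle was -0.49 and -0.68 in *h3.3kd* and -0.48 in WT replicate 1. Gene by gene over the first 3 kb, the H3 density of the 2 *h3.3kd* replicates had a Pearson r of 0.92 and a Spearman rho of 0.79 over 488 members, and that of the 2 WT replicates an r of 0.45 and a rho of 0.06. Every ratio over H3 in WT replicate 2 has this library below the line, so values are given library by library and, where it moves them, also without WT replicate 2. Here and below, the value of a mark is log2 of its mean density over the genes relative to H3 in the library that shares its genotype and number, so that 0 means as many reads of the mark as of H3 per 1000000.

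**Figure D1:**
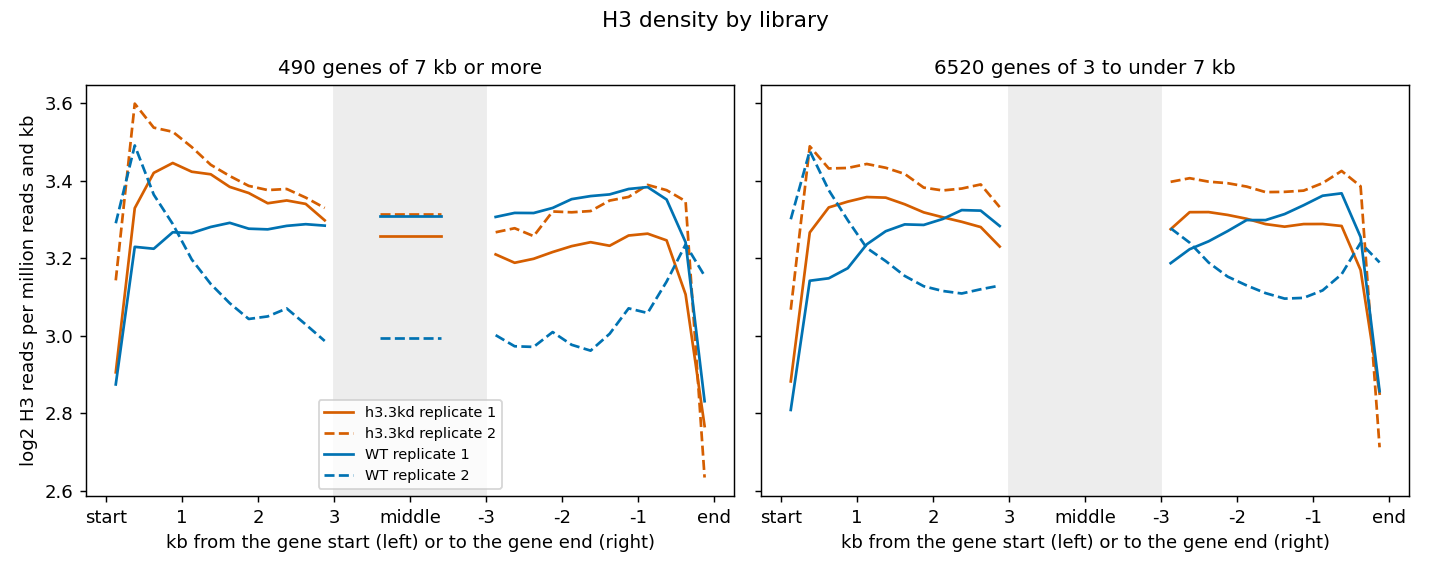
H3 density, log2 of reads per 1000000 reads and kb, in 250-bp steps over the first and last 3 kb (x axis, kb from the start or to the end) with the middle as 1 value in the shaded band, in the 490 long genes (left) and the 6520 genes of 3 to under 7 kb (right, no middle). Each line is 1 library of *h3.3kd* (orange) or WT (blue); the dashed blue line, WT replicate 2, falls towards the middle of long genes, to 2.99, where the other 3 lie between 3.26 and 3.31.

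A larger share of the H3 reads lay over the first 3 kb of long genes in *h3.3kd*. The density is relative to the reads of each library and does not measure the amount of H3, and the authors reported less total H3 protein in *h3.3kd* by western blot. The rise was not limited to long genes, with a median difference per gene of 0.18 in the members and 0.12 in genes of 3000 to under 7000 bp. The log2 density was 3.34 and 3.42 in *h3.3kd*, against 3.24 and 3.18 in WT, and the genotypes did not overlap. The difference was 0.17, and the exact two-sided permutation test gave p = 0.333, the smallest that 2 libraries against 2 allow, so no difference between the genotypes over the long genes as a whole can pass a threshold of 0.05 by that test. Without WT replicate 2 the difference was 0.14. In 10 of the 12 steps of 250 bp, both *h3.3kd* libraries lay above both WT libraries. Gene by gene, 305 of 488 members (62.5%) had both *h3.3kd* libraries above both WT libraries, where 39.6% of the first 3 kb of all genes of 3000 bp or more and 50.9% of those of 6000 to under 7000 bp did. In the middle the density was 3.26 and 3.31 in *h3.3kd*, against 3.31 and 2.99 in WT, and over the last 3 kb 3.19 and 3.28 in *h3.3kd*, against 3.301 and 3.05 in WT, and in both regions the ranges overlapped.

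H3K4me3 formed a narrow domain at the start of the long genes in every library and fell away long before the middle. Its highest step was at 250 to 500 bp, or 500 to 750 bp in WT replicate 2, and the value there was 1.26 and 1.14 in *h3.3kd*, against 1.27 and 1.23 in WT. The run of steps above the midpoint between that step and the middle of the gene reached 1000 and 1250 bp from the start in *h3.3kd* and 1000 bp in both WT libraries. Over the whole first 3 kb the mark stood at 0.58 and 0.63 in *h3.3kd*, against 0.49 and 0.88 in WT, a difference of -0.08 (exact permutation p = 1). In the middle it was 0.13 and -0.03 in *h3.3kd*, against 0.01 and 0.59 in WT, and over the last 3 kb -0.07 and -0.33 in *h3.3kd*, against -0.20 and 0.10 in WT. In each region WT replicate 2 was the highest of the 4, and without it the difference over the first 3 kb was 0.11, that is, of the other sign. Gene by gene, 428 of 488 members (87.7%) were above 0 over the first 3 kb as a whole in all 4 libraries. That count does not show a narrow domain in each gene, and the same share in shorter genes was not taken.

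**Figure D2:**
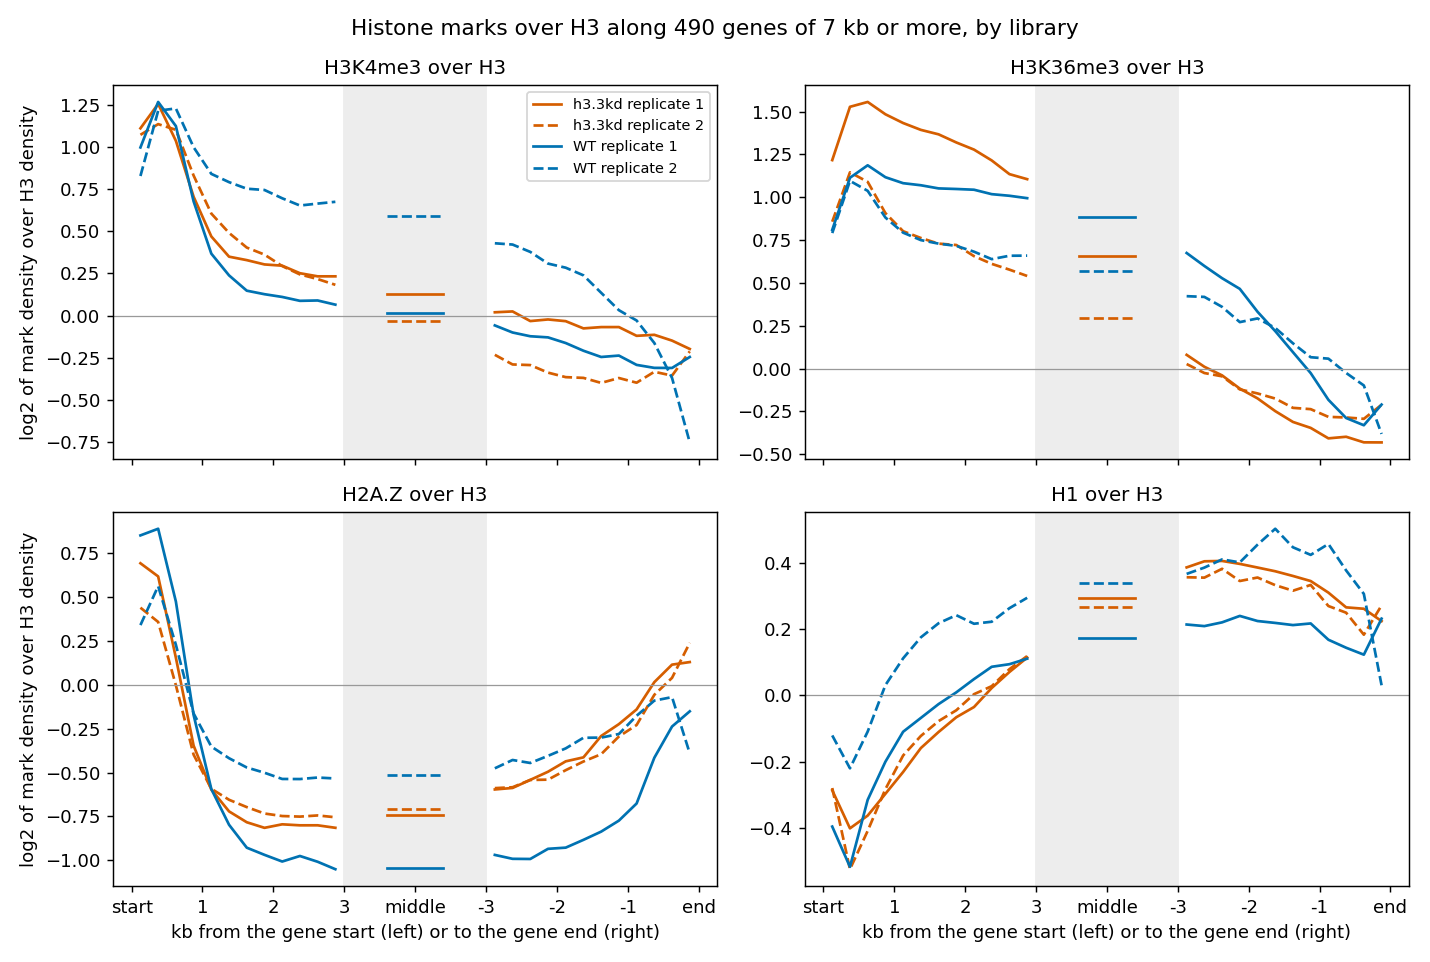
Log2 of mark density over H3 density (y axis) in 250-bp steps over the first and last 3 kb of the 490 long genes, with the middle as 1 value in the shaded band; each line is 1 library of *h3.3kd* (orange) or WT (blue). H3K4me3 and H2A.Z are highest in the first 750 bp, H1 is lowest there, and H3K36me3 of both *h3.3kd* libraries lies below both WT libraries in 9 of the 12 steps of the last 3 kb.

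H3K36me3 was high over the first part of the long genes as well, and over the last 3 kb it was lower in both *h3.3kd* libraries than in both WT libraries. The highest step was at 250 to 500 or 500 to 750 bp, at 1.56 and 1.15 in *h3.3kd*, against 1.19 and 1.10 in WT. It lay 0.90 and 0.85 above the middle of the gene in *h3.3kd*, against 0.30 and 0.52 in WT, so the drop along the gene was larger in both *h3.3kd* libraries. Over the first 3 kb the mark was 1.35 and 0.80 in *h3.3kd*, against 1.05 and 0.81 in WT, and *h3.3kd* replicate 1 alone was above WT. The run of steps above the midpoint reached 2750 and 2000 bp in *h3.3kd*, against 2250 and 1000 bp in WT, further than that of H3K4me3 except in WT replicate 2, where both reached 1000 bp. The difference over the first 3 kb, 0.15, had an exact permutation p of 1 and was -0.13 without *h3.3kd* replicate 1. In the middle the mark was 0.66 and 0.29 in *h3.3kd*, against 0.89 and 0.57 in WT, lower within each replicate number but with overlapping ranges (difference -0.25, exact permutation p = 0.667).

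Over the last 3 kb of the long genes, H3K36me3 was -0.22 and -0.17 in *h3.3kd*, against 0.21 and 0.15 in WT. Both *h3.3kd* libraries had fewer reads of the mark than of H3 per 1000000 there, and both WT libraries more. The means were -0.19 ± 0.04 in *h3.3kd* and 0.18 ± 0.04 in WT (SD, n = 2 each), a difference of -0.37, with p = 0.333 in the exact permutation test, the smallest it can give. The difference was -0.43 between the libraries of replicate 1 and -0.32 between those of replicate 2. It was -0.40 without WT replicate 2, -0.32 with no H3 below the line and -0.20 with replicate 1 of H3 as the denominator for both replicates, where the genotypes overlapped (exact permutation p = 0.667). At 3000 to 2750 bp before the end the values were 0.08 and 0.03 in *h3.3kd*, against 0.67 and 0.42 in WT. In the final 250 bp they were -0.43 and -0.21 in *h3.3kd*, against -0.21 and -0.38 in WT, and at the very end the genotypes overlapped. The difference had nearly the same size in each length class, -0.37 in members under 8000 bp, -0.37 in those of 8000 to under 10000 bp and -0.38 in those of 10000 bp or more. In the middle it was -0.32, -0.24 and -0.17 in the same order of length. The *h3.3kd* libraries of this mark are the shallower ones, with a median of 252 and 347 reads over the last 3 kb of a member, against 958.5 and 517.5 in WT, and the part of depth in the result was not tested.

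**Figure D3:**
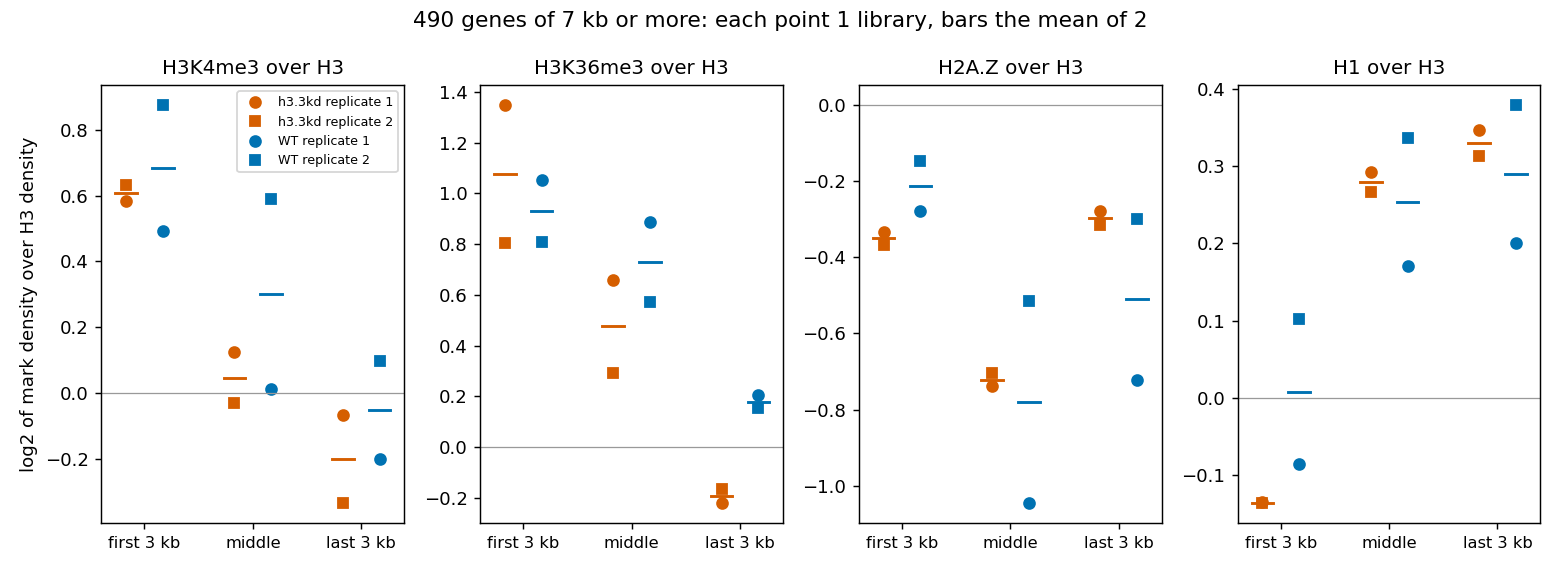
Log2 of mark density over H3 density (y axis) over the first 3 kb, the middle and the last 3 kb of the 490 long genes; each point is 1 library, *h3.3kd* (orange) left of WT (blue), circles replicate 1, squares replicate 2 and bars the mean of 2. Over the last 3 kb H3K36me3 is -0.22 and -0.17 in *h3.3kd* and 0.21 and 0.15 in WT, while H3K4me3 and H2A.Z spread more between the WT replicates than between the genotypes.

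The lower H3K36me3 over the last 3 kb was seen in nearly every long gene. Gene by gene, 476 of 490 members were lower in *h3.3kd* by their means and 14 higher, with a median difference of -0.39, where the genes of 3000 to under 7000 bp had a median of -0.16. In shorter genes under 6 kb, however, the first and last 3 kb share bases. The 387 genes of 6000 to under 7000 bp, in which they do not, had a median of -0.395, and 378 of the 387 were lower, a difference of the size seen in the long genes. Within each replicate number, 440 members were lower in both and 11 higher in both. Both *h3.3kd* libraries lay below both WT libraries in 401 members (81.8%), against 36.2% of the last 3 kb of all genes of 3000 bp or more, long genes included, and 78.3% of the genes of 6000 to under 7000 bp. In 242 members (49.4%) the limma p before adjustment was 0.05 or less with *h3.3kd* lower, against 14.5% of all genes of 3000 bp or more. With replicate 1 of H3 as the denominator, 411 members were lower and 79 higher. Relative to the median of all windows, with first 3 kb, middles and last 3 kb pooled, the long genes stood at -0.30. With no H3 denominator, which moved that median by over 0.1, they stood at -0.35. The last 3 kb alone of all genes of 3000 bp or more, long genes included, had a median of -0.18. The differences in replicate 1 and in replicate 2 had a Pearson r of 0.05 over the 490 members, a description over genes of the same libraries and not over independent samples.

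**Figure D4:**
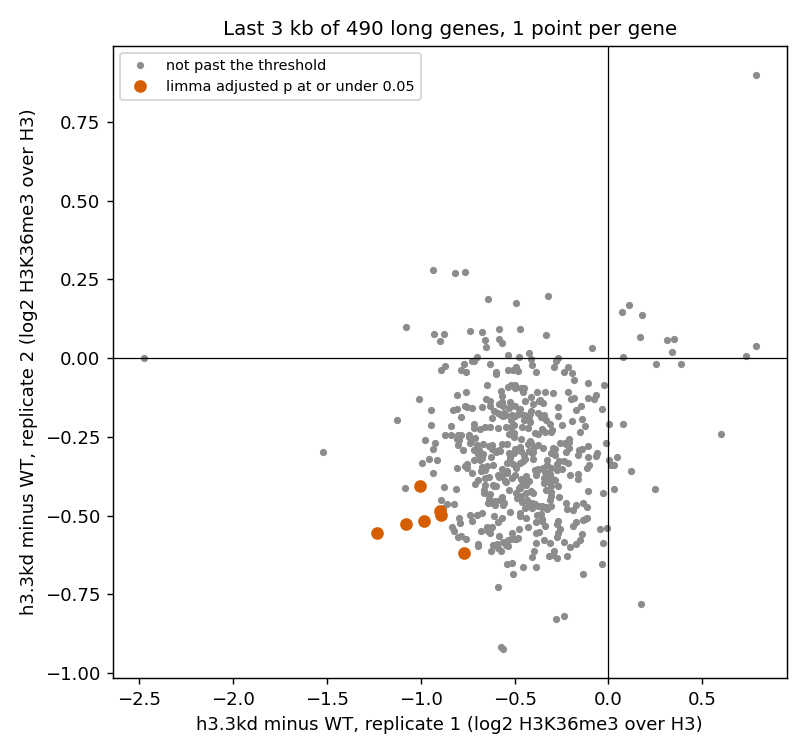
The difference in log2 H3K36me3 over H3 over the last 3 kb between *h3.3kd* and WT, in replicate 1 (x axis) and in replicate 2 (y axis), for each of the 490 long genes; orange points are the 7 with a limma adjusted p at or under 0.05 there. The 440 genes at the lower left are below 0 in both replicates.

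Of the windows of long genes, 20 of 1468 (1.36%) passed an adjusted p of 0.05 for H3K36me3 in limma, where 0.359% of all windows tested did, and all 20 were lower in *h3.3kd*. All windows include these 20, and outside the long genes 32 of 13012 windows were called. A window is the first 3 kb, the middle or the last 3 kb of a gene, and the p is adjusted over all windows of genes of 3000 bp or more by Benjamini-Hochberg. The 20 windows called in long genes belonged to 17 members. They were 3 of 488 first 3 kb, 10 of 490 middles and 7 of 490 last 3 kb. Outside the long genes only 4 middles were tested, those of the genes of that length that are not described. The windows there are thus nearly all first or last 3 kb. MEE29 had the largest fall, over its first 3 kb, with -1.45 and -0.41 in *h3.3kd*, against 0.51 and 0.20 in WT. The difference was -1.29 with a standard error of 0.21 and an adjusted p of 1.0e-05 in limma, and the middle of MEE29 fell by 0.95 (adjusted p = 0.00658). In this fit the standard errors and p-values rest almost wholly on the trend in spread over all windows. The agreement between the replicates of a single window carries next to no weight in them. They are not the spread of MEE29 itself, whose *h3.3kd* libraries lay far apart, at -1.45 and -0.41. ABCG42 (AT4G15233), a transporter of the pleiotropic drug resistance type, had -0.87 and -0.83 in its middle in *h3.3kd*, against 0.35 and -0.09 in WT, a difference of -0.98 (limma adjusted p = 0.0117). Its relatives ABCG41 (AT4G15215) and ABCG30 (AT4G15230), from the same stretch of chromosome 4, were called in the middle as well, at -0.89 and -0.89. These and the genes named in the rest of this paragraph were chosen after their values were seen. RECQ4B (AT1G60930), a RecQ helicase, fell by 0.89 over its first 3 kb and by 0.70 in the middle. Among the genes called over the last 3 kb was AT5G28350, described as a RIC1-like exchange factor, which had -0.59 and -0.35 in *h3.3kd*, against 0.64 and 0.21 in WT (adjusted p = 0.00155 in limma). PTM (AT5G35210), a PHD transcription factor with a transmembrane domain, and TTN7 (AT2G27170), a structural maintenance of chromosomes protein, fell there by 0.80 and 0.71. The myosin gene XIF (AT2G31900) and the immune receptor gene RPS6 (AT5G46470) fell in the middle by 0.76 and 0.75. Reads of paralogs such as the ABCG genes are uncertain, since only reads with a unique place were kept.

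The calls depended on single libraries, on the H3 denominator and on the tool. Limma-voom on the read counts called 0 windows of long genes for H3K36me3, as did limma with no H3 denominator. With both replicates set over H3 replicate 1, limma called 4. Without *h3.3kd* replicate 1 limma called 0, without WT replicate 1 it called 1, which rose, and without *h3.3kd* replicate 2 it called 13. For H3K4me3, H2A.Z, H1 and H3 limma called 0 windows of long genes, and 0% of all windows, and limma-voom called 0 as well. Of the 1468 windows of long genes, 35, 149, 60 and 46 had an unadjusted limma p of 0.05 or less. Of all windows, long genes included, 206, 1136, 307 and 428 did, out of 14482 for each antibody but H1, with 14481. Leaving out 1 WT library brought calls for each of these 4 antibodies, in long genes and in other windows alike, with the lone WT library assumed to vary as the others do.

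The longest genes showed the pattern of the group. In ATM H3K36me3 stood at 1.58 and 1.05 over the first 3 kb in *h3.3kd*, against 1.15 and 0.79 in WT, and at 1.19 and 0.62 in the middle in *h3.3kd*, against 1.26 and 0.65 in WT. In the last 3 kb of ATM it was -0.08 and 0.18 in *h3.3kd*, against 0.45 and 0.42 in WT, without overlap, and the difference of -0.38 had an adjusted p of 0.504 in limma. AT1G67120, the midasin-like gene of 26211 bp, had -0.88 and -0.55 there in *h3.3kd*, against -0.24 and -0.09 in WT (difference -0.55, limma adjusted p = 0.376). AT1G48090, a lipid-binding family gene of 26499 bp, had -0.18 and -0.02 in *h3.3kd*, against 0.20 and 0.33 in WT (difference -0.36, adjusted p = 0.501 in limma). TIL1 (AT1G08260), the catalytic subunit of DNA polymerase epsilon, had -0.08 and -0.15 in *h3.3kd*, against 0.53 and 0.35 in WT (difference -0.56, adjusted p = 0.156 in limma). Among the 10 longest members the difference over the last 3 kb ran from -0.64 in AT1G58602, an immune receptor gene, to -0.16 in AT4G36080, and all 10 were negative with none past the threshold. ATM, AT1G67120, AT1G48090 and TIL1 had no overlap between the genotypes. AT1G58602 differed from the others in level, with -0.55 and -0.09 over the first 3 kb in *h3.3kd*, against -0.34 and 0.06 in WT.

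The families of long genes differed little in the H3K36me3 change and more in the levels of the marks. The median difference over the last 3 kb was -0.50 in the 10 callose synthases, -0.43 in the 22 motor proteins, -0.41 in the 48 polymerases and helicases and -0.40 in the 27 chromatin regulators, beside -0.39 in all long genes. All members of these 4 lists were lower in *h3.3kd*. It was -0.40 in both the trafficking and the transcription lists, -0.39 in the ubiquitin system, -0.37 in the ABC transporters, -0.34 in the kinases and -0.30 in the immune receptors, with 36 of 38 kinases and 5 of 6 immune receptors lower and all members of the other lists. By adjusted p, 1 gene each of the chromatin, ubiquitin and transcription lists fell over the last 3 kb and 0 rose, where 7 of all 490 long genes were called there and 0.359% of all windows of any region were. GSL8 (AT2G36850), which builds callose at the cell plate, had 0.02 and -0.07 in *h3.3kd*, against 0.59 and 0.38 in WT (difference -0.51, limma adjusted p = 0.235). POK2 (AT3G19050), a kinesin that marks the plane of cell division, had -0.97 and -0.17 in *h3.3kd*, against 0.04 and -0.04 in WT (difference -0.57, limma adjusted p = 0.217). The myosin gene XI-I (AT4G33200) had -0.06 and -0.03 in *h3.3kd*, against 0.87 and 0.24 in WT (difference -0.60, limma adjusted p = 0.137). UPL1 (AT1G55860), a HECT ubiquitin ligase, had -0.19 and -0.38 in *h3.3kd*, against 0.35 and 0.21 in WT (difference -0.57, limma adjusted p = 0.133). In these 4 genes both *h3.3kd* libraries lay below both WT libraries. SYD (AT2G28290), an ATPase of the SWI/SNF chromatin remodellers, had -0.34 and -0.16 in *h3.3kd*, against -0.31 and 0.27 in WT. CHR5 (AT2G13370), a CHD remodeller, had -0.46 and -0.26 in *h3.3kd*, against 0.14 and -0.21 in WT.

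In level the immune receptors and the callose synthases stood off from the other long genes. The median H3K36me3 of the 6 immune receptors over the first 3 kb was -0.36 and 0.10 in *h3.3kd*, against 0.10 and -0.05 in WT, where the long genes had 1.50 and 0.90 in *h3.3kd*, against 1.17 and 0.89 in WT. The median H2A.Z of the callose synthases over the first 3 kb was 0.11 and 0.11 in *h3.3kd*, against 0.41 and 0.34 in WT, where the long genes had -0.49 and -0.48 in *h3.3kd*, against -0.48 and -0.26 in WT. GSL09 was low in H3K36me3, with -1.41 and -0.94 over the first 3 kb in *h3.3kd*, against -0.67 and -1.01 in WT, and high in H2A.Z, with 0.55 and 0.46 in *h3.3kd*, against 1.00 and 0.55 in WT.

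H2A.Z was held at the start of the long genes and was low along the body in every library. It was highest in the first 500 bp, at 0.69 and 0.44 in *h3.3kd*, against 0.89 and 0.56 in WT, and the middle stood at -0.74 and -0.71 in *h3.3kd*, against -1.05 and -0.52 in WT. In 422 of 490 members (86.1%) the middle was under 0 in all 4 libraries. Towards the end of the gene it was higher again, at 0.13 and 0.24 in the final 250 bp in *h3.3kd*, against -0.15 and -0.39 in WT. The log2 H3 density below the line was itself lower there in *h3.3kd*, at 2.77 and 2.63, against 2.83 and 3.15 in WT. The difference in the ratio at that step is thus not one of H2A.Z alone. Over the whole first 3 kb H2A.Z was -0.33 and -0.37 in *h3.3kd*, against -0.28 and -0.15 in WT, a difference of -0.14 without overlap (exact permutation p = 0.333). That difference was -0.07 without WT replicate 2 and 0.03 with no H3 below the line. Both *h3.3kd* libraries lay below both WT libraries there in 155 of 488 members (31.8%), against 28.3% of all genes of 3000 bp or more, a share close to the background. Over the last 3 kb H2A.Z was -0.28 and -0.32 in *h3.3kd*, against -0.72 and -0.30 in WT, so the difference of 0.21 came from WT replicate 1 and was 0.002 without it. Both *h3.3kd* libraries lay above both WT libraries in 217 members (44.3%), against 26.3% of all genes of 3000 bp or more and 42.9% of those of 6000 to under 7000 bp. In ATM the middle stood at -1.12 and -1.14 in *h3.3kd*, against -1.40 and -0.85 in WT.

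Linker histone H1 ran the other way from H3K4me3, lowest near the start and higher than H3 over the middle and the last 3 kb. Its lowest step was at 250 to 500 bp in all 4 libraries, at -0.40 and -0.52 in *h3.3kd*, against -0.52 and -0.22 in WT. Its highest steps of the last 3 kb were at 0.40 and 0.38 in *h3.3kd*, against 0.24 and 0.50 in WT, and 390 of 490 members (79.6%) were above 0 over the last 3 kb in all 4 libraries. Over the first 3 kb H1 was -0.14 and -0.14 in *h3.3kd*, against -0.09 and 0.10 in WT, a difference of -0.14 without overlap (exact permutation p = 0.333). It was -0.05 without WT replicate 2 and 0.03 with no H3 below the line. In 9 of the 12 steps both *h3.3kd* libraries were below both WT libraries, and gene by gene this held over the first 3 kb in 204 of 488 members (41.8%), against 24.1% of all genes of 3000 bp or more and 32.0% of those of 6000 to under 7000 bp. In the middle H1 was 0.29 and 0.27 in *h3.3kd*, against 0.17 and 0.34 in WT, and over the last 3 kb 0.35 and 0.31 in *h3.3kd*, against 0.20 and 0.38 in WT, with overlapping ranges in both. AT1G67120 had 0.003 and -0.05 over its first 3 kb in *h3.3kd*, against 0.36 and 0.44 in WT, and ATM had 0.60 and 0.67 over its last 3 kb in *h3.3kd*, against 0.22 and 0.65 in WT.

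The long genes differed from genes of 3000 to under 7000 bp in the same direction in nearly every library. The long genes had more H3K4me3 over the first 3 kb, by 0.16 and 0.21 in *h3.3kd* and by 0.14 and 0.29 in WT, a mean of 0.20. They had more H3K36me3 there, by 0.63 and 0.39 in *h3.3kd* and by 0.46 and 0.30 in WT, a mean of 0.45. They had less H2A.Z there, with differences of -0.34 and -0.29 in *h3.3kd* and of -0.33 and -0.22 in WT, a mean of -0.30. Each of these was of 1 sign in 4 of 4 libraries, with p = 0.125 in an exact two-sided sign-flip permutation test over the libraries, the smallest it allows. For H1 over the first 3 kb the differences were -0.12 and -0.09 in *h3.3kd* and -0.04 and 0.0006 in WT (exact sign-flip p = 0.25). In genes under 6 kb the first and last 3 kb share bases. Against the 387 genes of 6000 to under 7000 bp alone, an alternative chosen after seeing the data, the means over the first 3 kb were 0.0785 for H3K4me3, 0.156 for H3K36me3, -0.0871 for H2A.Z and -0.0298 for H1, of the same sign but smaller.

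Over the last 3 kb the long genes had less of 3 marks and more H1 than the genes of 3000 to under 7000 bp, but for H3K4me3 and H3K36me3 this did not hold against genes whose first and last 3 kb are apart. The difference was -0.20 and -0.39 in *h3.3kd* and -0.24 and -0.18 in WT for H3K4me3, a mean of -0.25. For H3K36me3 it was -0.47 and -0.26 in *h3.3kd* and -0.08 and -0.10 in WT, a mean of -0.23. For H2A.Z it was -0.23 and -0.21 in *h3.3kd* and -0.56 and -0.30 in WT, a mean of -0.32, and for H1 it was 0.22 and 0.21 in *h3.3kd* and 0.14 and 0.16 in WT, a mean of 0.18. Each had an exact sign-flip p of 0.125. The genotypes did not overlap in this contrast for H3K36me3, H2A.Z and H1 over the last 3 kb, and for H1 over the first 3 kb. For H3K36me3 over the last 3 kb the contrast differed by -0.28 between *h3.3kd* and WT (exact permutation p = 0.333, the smallest possible). Against the 387 genes of 6000 to under 7000 bp, the contrast was 0.0390 and 0.0285 in *h3.3kd* and 0.0302 and 0.0339 in WT for H3K36me3, and it differed by 0.00167 between the genotypes (exact permutation p = 1). The means over the last 3 kb were then 0.0105 for H3K4me3 and 0.0329 for H3K36me3, of the other sign, and -0.0705 for H2A.Z and 0.0263 for H1.

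**Figure D5:**
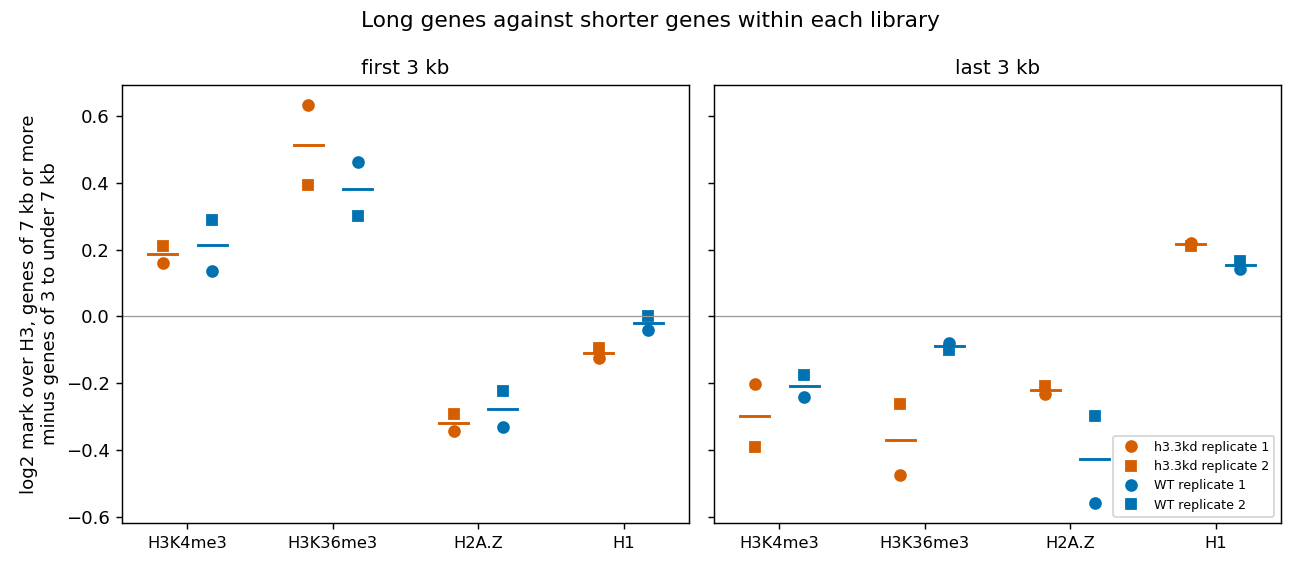
Log2 of mark over H3 in the 490 long genes minus that in the 6520 genes of 3 to under 7 kb (y axis) over the first 3 kb (left) and the last 3 kb (right), for each of 4 marks; each point is 1 library, *h3.3kd* (orange) left of WT (blue), and bars are means of 2. The genes of 3 to under 6 kb have overlapping first and last 3 kb. H3K4me3 and H3K36me3 are above 0 at the start and below 0 at the end in all 4 libraries, and H3K36me3 at the end is -0.47 and -0.26 in *h3.3kd* and -0.08 and -0.10 in WT.

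In some long genes the marks of transcription did not stand above H3 over the first 3 kb. H3K36me3 over the first 3 kb was above 0 in all 4 libraries in 417 of 488 members (85.5%) and under 0 in all 4 in 50 (10.2%). H3K4me3 was under 0 in all 4 in 21 members, and these 21 were under 0 for H3K36me3 as well. They included XIC (AT1G08730) and XIE (AT1G54560), which encode myosins, ACC2 (AT1G36180), an acetyl-CoA carboxylase gene, PAP5 (AT1G52940), a purple acid phosphatase gene, and LUP5 (AT1G66960), a terpenoid cyclase gene. These 5 were picked after their values were seen. A value under 0 over 3 kb does not show that a mark is absent, and for H3K4me3 XIC lay near 0 in most libraries. Its H3K4me3 was -0.07 and -0.42 in *h3.3kd*, against -0.05 and -0.06 in WT. Its H3K36me3 was further below, at -1.07 and -0.70 in *h3.3kd*, against -0.42 and -0.33 in WT. Of the 21, 8 had H2A.Z above 0 along the middle in all 4 libraries. Among all long genes 19 had H2A.Z above 0 along the middle in all 4 libraries, and 18 of these 19 had H3K36me3 under 0 at the start. Over the 490 members in WT, H3K36me3 and H2A.Z along the middle had a Pearson r of -0.60 (Spearman rho -0.46), and H3K4me3 and H3K36me3 over the first 3 kb one of 0.92 over 488 (rho 0.84). The points of each share libraries and the H3 denominator, and the r values are descriptions. AT2G34100, the long gene with the longest intron, is 1 of the 21, with H3K4me3 of -0.57 and -1.05 over the first 3 kb in *h3.3kd*, against -0.71 and -0.89 in WT.

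The long introns of long genes held fewer H3 reads than the rest of the same genes. Over the 24 members whose longest intron was 1500 bp or more, H3 density in that intron minus that in the rest of the gene was -0.27 and -0.44 in *h3.3kd*, and -0.34 and -0.03 in WT, a mean of -0.27. H2A.Z over H3 was lower in the intron as well, by -0.39 and -0.16 in *h3.3kd* and by -0.39 and -0.59 in WT, a mean of -0.38. The means for H3K4me3 and H1 were -0.19 and -0.16. These 4 were of 1 sign in 4 of 4 libraries, with an exact sign-flip p of 0.125 each, the smallest possible. For H3K36me3 the difference was 0.003 and 0.07 in *h3.3kd*, and 0.07 and -0.35 in WT (mean -0.05, exact sign-flip p = 1). In the 12 of these members that overlap no other gene, the mean was -0.34 for H3, -0.54 for H2A.Z, -0.21 for H1, -0.03 for H3K4me3 and 0.16 for H3K36me3. AT3G60961, AT2G34110 and AT2G34100 have the longest introns. Their H3K36me3 over the first 3 kb was -0.998 and -0.34 in *h3.3kd*, against -0.74 and -0.28 in WT, in AT3G60961, and -0.62 and -0.44 in *h3.3kd*, against -0.74 and -0.29 in WT, in AT2G34110. The introns of AT2G34100 and AT2G34110 lie across each other on opposite strands, so their reads cannot be told apart.

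A few long genes could not be read along their whole length. AT3G24870 and its neighbour AT3G24880 on chromosome 3, both described as helicase/SANT-associated DNA-binding proteins, had 0 H3 reads over the first 3 kb in all 4 libraries, and only reads with a unique place in the genome were kept. They are the 2 members left out of every count over the first 3 kb, which is why those counts are of 488. AT1G39070 had 36 and 41 H3 reads over the first 3 kb in *h3.3kd*, against 42 and 20 in WT. The medians over all members were 479.5 and 496 H3 reads there in *h3.3kd*, against 426 and 236 in WT.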

How the data were processed

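The 20 ChIP-seq libraries of 10-day seedlings comprise 5 antibodies, 2 genotypes and 2 replicates, taken from the sample titles. The authors mapped reads to TAIR10 with Bowtie, allowing up to 2 mismatches, kept uniquely mapping reads, removed reads at the same coordinates and sequenced on an Illumina HiSeq. They deposited the leftmost position of each remaining read, which carries no unit and no normalization. TAIR10 and the TAIR10.1 annotation used here share chromosome coordinates, and no read ran past a chromosome end.

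Reads were counted at their centre (25 bp from the leftmost base), scaled to the total of their library, and divided by H3 in the library sharing its genotype and number. Counts depend on depth, 8688846 to 68090065 reads, and counting intervals would cover counting error only. That replicates came from separate plants is not stated, so p-values measure the spread between these libraries. In limma that spread was moderated towards the trend over all windows. For H3K36me3 its p-values rest almost wholly on that trend and hardly on the replicates of the single window. Regions were compared by exact permutation tests. Windows were compared with limma 3.58.1 (lmFit, eBayes with trend) in R 4.3.3 on log2 ratios with a pseudocount of 0.1 reads per 1000000, which understates changes at low counts, where windows averaged 10 reads or more, adjusted by Benjamini-Hochberg over all windows with a threshold of 0.05. Other steps used Python 3.11.15 with scipy 1.17.1, pandas 2.3.3, numpy 2.4.6 and matplotlib 3.10.9. The fits were tested on simulated data.

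By rule the text draws on the 10 longest members, the 2 longest of each of 10 lists, the 3 with the longest introns, and the 2 largest rises and falls among called members. The members and lists were chosen with earlier results of these data known. The alternatives were no H3 denominator, replicate 1 of H3 as denominator, per-gene means of log2 ratios, the leftmost base, library size from the 5 chromosomes, a pseudocount of 0.5, no filter on low windows, limma-voom, a replicate block, members overlapping no other gene, and leaving out each library. Leaving out libraries and overlapping members in the intron comparison, and comparing with genes of 6000 to under 7000 bp alone, were added after seeing the data.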

Additional observations from a re-analysis of the deposited data

How the results depend on the processing

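Of 88 alternatives for the 8 contrasts of long with shorter genes, 86 kept the direction, and against genes of 6000 to under 7000 bp the mean over the last 3 kb was 0.0105 for H3K4me3 and 0.0329 for H3K36me3, since in genes under 6 kb the first and last 3 kb share bases. All 8 means were closer to 0 in that alternative, which was chosen after seeing the data. The lower H3K36me3 over the last 3 kb in *h3.3kd* kept its direction under all of its own, between -0.41 and -0.20. Of 144 alternatives for the differences between genotypes, 132 kept the direction. With no H3 denominator the difference over the first 3 kb was 0.0944 for H3K4me3, 0.0338 for H2A.Z and 0.027 for H1, each of the other sign, and with replicate 1 of H3 as denominator H3K4me3 over the last 3 kb was 0.0239. The cause was not tested. Leaving out 1 library gave, over the first 3 kb, -0.27 to 0.11 for H3K4me3 and -0.13 to 0.42 for H3K36me3. In the middle it gave -0.54 to 0.0348 for H3K4me3, -0.21 to 0.32 for H2A.Z, -0.0575 to 0.11 for H1 and -0.0221 to 0.29 for H3, and over the last 3 kb -0.05001 to 0.13 for H1 and -0.0685 to 0.18 for H3. The sign changed without WT replicate 1 or 2, and for H3K36me3 without *h3.3kd* replicate 1.

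For the 20 H3K36me3 windows called, limma-voom gave 0, no H3 denominator 0, replicate 1 of H3 as denominator 4 and the replicate block 65, and H1 had 215 calls with replicate 1 of H3 as denominator. Leaving out 1 library gave 0 to 428 calls for H3K4me3, 0 to 15 for H3K36me3, 0 to 711 for H2A.Z, 0 to 261 for H1 and 0 to 381 for H3. The replicates share only a number, with 2 pairs. The deviations of same-numbered libraries from their group means were correlated over all windows and over the windows of long genes. Over all windows the correlation was 0.17 for H3K4me3, 0.32 for H3K36me3, 0.09 for H2A.Z, 0.02 for H1 and -0.13 for H3. Over the windows of long genes it was 0.28, 0.35, 0.20, -0.04 and -0.19 in the same order. The replicate block moved no other count of calls among long genes. The intron difference of H3K36me3 was 0.16 in members overlapping no other gene, and -0.0944 to 0.047 when 1 library was left out. The lowest median depth was that of H3 in WT replicate 2, with 160 reads in the middle of a member.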
